A study of Homo sapiens with 8 samples.

Results

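The aryl hydrocarbon receptor (AHR) gene set described here holds 7 genes: the receptor gene AHR, its partner gene ARNT, and the targets CYP1A1, CYP1A2, CYP1B1, AHRR and TIPARP. They were taken by gene symbol, and each gene was read through its brightest probe set over the 8 arrays, with its other probe sets as a check. The 7 genes are 7 of the 18132 genes on the array that had a probe set of their own, and they were covered by 21 of the 49395 probe sets. All 7 were among the 10527 genes bright enough to test, that is, above a log2 signal of 5.36 on at least 2 arrays.

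The cells were H3122, a human lung adenocarcinoma line driven by the EML4-ALK fusion kinase, and its ceritinib-resistant derivatives H3122-LR3 and H3122-LR2. Crizotinib and ceritinib are ALK kinase inhibitors, each given at 1000 nM for 6 h. LR2 and parental cells were measured with crizotinib, with ceritinib and untreated, LR3 cells with ceritinib and untreated. Each of these 8 conditions had 1 array, and all cells grew in RPMI medium with fetal bovine serum. Whether LR2 and LR3 are single clones, and whether untreated cells received the solvent, is not given in the sources used here. Values are deposited log2 signals, so a difference of 1 is a 2-fold difference, and signals of different probe sets cannot be compared with each other. With bulk RNA, fewer cells of a kind and less RNA per cell cannot be told apart.

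AHR is a transcription factor that rests in the cytoplasm bound to HSP90 chaperones and is activated by small planar ligands, among them dioxins, tobacco smoke hydrocarbons and tryptophan metabolites. It then enters the nucleus, pairs with ARNT and binds xenobiotic response elements, whose core is GCGTG. Its best known targets in airway epithelium are the CYP1 monooxygenases, which oxidise polycyclic hydrocarbons. Other targets limit the response: AHRR competes with AHR for ARNT, and TIPARP, an ADP-ribosyltransferase, leads to loss of AHR protein.

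RefSeq promoter windows (GRCh38.p14) were given for 6 of the 7 genes, 9 windows in all, and the 250 bases before each start were searched. CYP1B1 is named here without a window. The core GCGTG was sought on both strands, where it reads CACGC on the reverse, and 32.2% of 35116 windows of this length held it. The longer form TNGCGTG, which contains the core, was in 4.52% of them. The sequences below are those of 3 targets that were higher with crizotinib and of CYP1A2, which was not called, with each core in capitals. The windows are CYP1A1 at chr15:74725529-74725778 on the minus strand, AHRR at chr5:321464-321713, TIPARP at chr3:156674340-156674589 and CYP1A2 at chr15:74748595-74748844, these 3 on the plus strand.
CYP1A1: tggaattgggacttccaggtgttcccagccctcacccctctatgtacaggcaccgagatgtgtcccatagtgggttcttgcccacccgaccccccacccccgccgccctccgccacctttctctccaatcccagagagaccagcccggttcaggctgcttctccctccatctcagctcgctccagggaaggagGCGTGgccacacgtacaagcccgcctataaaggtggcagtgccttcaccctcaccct
AHRR: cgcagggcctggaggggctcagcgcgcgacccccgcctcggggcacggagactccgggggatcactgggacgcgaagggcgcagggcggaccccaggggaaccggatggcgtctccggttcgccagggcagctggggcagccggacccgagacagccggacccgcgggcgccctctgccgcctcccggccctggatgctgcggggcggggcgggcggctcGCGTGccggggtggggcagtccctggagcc
TIPARP: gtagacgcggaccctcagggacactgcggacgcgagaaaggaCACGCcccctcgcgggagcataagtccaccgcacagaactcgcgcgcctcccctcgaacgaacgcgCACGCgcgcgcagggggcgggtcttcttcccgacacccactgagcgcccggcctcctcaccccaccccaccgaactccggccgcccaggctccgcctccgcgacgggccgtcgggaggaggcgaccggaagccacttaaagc
CYP1A2: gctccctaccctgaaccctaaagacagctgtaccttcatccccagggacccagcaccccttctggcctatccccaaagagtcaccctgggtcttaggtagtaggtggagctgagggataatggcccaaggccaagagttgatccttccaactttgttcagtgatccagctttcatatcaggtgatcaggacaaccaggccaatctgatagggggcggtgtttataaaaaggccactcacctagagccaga
Counting back from the first transcribed base, the CYP1A1 core began at position -57 and the AHRR core at -30. The AHRR core lay within the longer form, that of CYP1A1 did not. TIPARP held 2 cores, at -208 and -142, both on the reverse strand, and its other 2 windows held none. A second AHRR window, at chr5:322360-322609, held 2 cores. CYP1A2, ARNT and AHR held none within 250 bases of their starts. A match of these letters is a description of the window, and the known enhancer elements of CYP1A1 lie further upstream.

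The labels were checked first. Lung epithelial markers were above the floor of 5.36 for 8 of 8 genes, with a mean per array of 11.45 to 11.56. ALK lay between 7.19 and 7.39 in parental cells, 8.41 and 8.55 in LR2 cells, and 8.09 and 8.10 in LR3 cells. Against parental cells limma called ALK higher in LR2 (1.21) and in LR3 (0.84). None of the 5 fibroblast markers passed the floor on any array (highest 5.16), while 1 of 4 leukocyte, 3 of 4 endothelial and 2 of 3 hepatocyte markers did, none above 6.52. Array medians were 5.31 to 5.36, except 5.46 for LR2 cells with ceritinib.

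Crizotinib was set against ceritinib within LR2 and within parental cells. On their brightest probe sets CYP1A1, CYP1B1, AHRR and TIPARP had higher signals with crizotinib than with ceritinib in both lines. They were also higher with ceritinib than untreated in both, while CYP1A2, AHR and ARNT showed no such order. Some of these steps lay near the median of all genes. In parental cells AHRR crizotinib minus ceritinib was 0.02, rank 5360 of 10527 genes, where the median was 0.03. TIPARP ceritinib minus untreated was 0.04 there, rank 4803, where the median was 0.02. In LR2 cells CYP1B1 ceritinib minus untreated was 0.18, rank 2866, where the median was 0.10. The dimmer sets of TIPARP and AHRR did not keep the full order. No difference between the agents passed the test over all genes. The largest estimate was that of CYP1A1, whose single arrays differed 1.74-fold in LR2 cells and 1.24-fold in parental cells.

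CYP1A1, the inducible monooxygenase that serves as the standard readout of AHR activity, read 12.57 with crizotinib in LR2 cells and 12.58 in parental cells. With ceritinib it read 12.16 in LR3, 11.77 in LR2 and 12.27 in parental cells. Untreated cells read 11.53 in LR3, 10.91 in LR2 and 10.87 in parental cells. Both crizotinib arrays thus stood above all 3 ceritinib arrays, and these above all 3 untreated arrays. Crizotinib minus ceritinib was 0.80 in LR2 and 0.31 in parental cells, which ranked CYP1A1 14 in LR2 and 177 in parental cells among 10527 genes. Its second probe set read 12.01 against 11.19 in LR2 cells and 12.04 against 11.66 in parental cells, crizotinib against ceritinib.

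**Figure D1:**
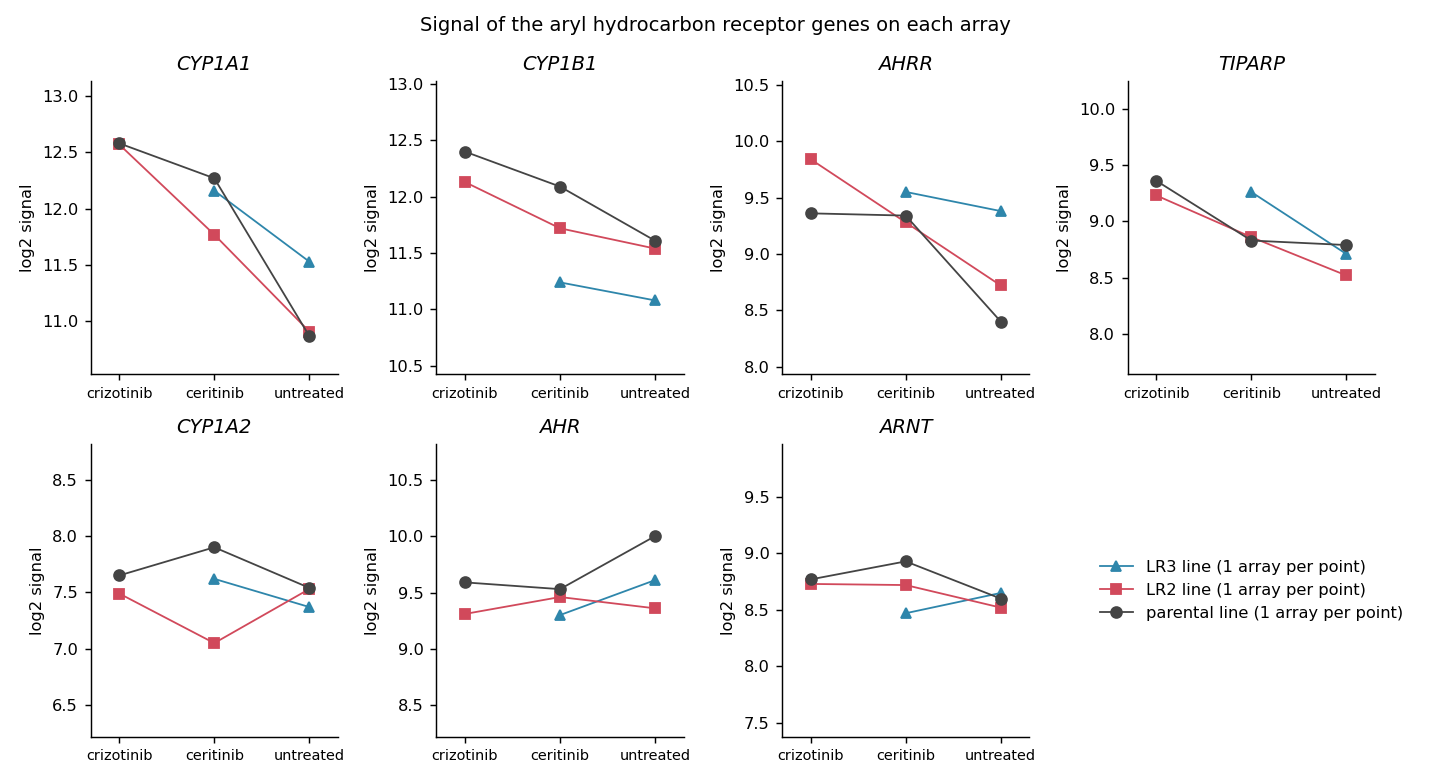
Log2 signal of the 7 genes, 1 panel per gene, on each of the 8 arrays. Agents run along the horizontal axis, each point is 1 array, lines join the arrays of a cell line, and vertical axes differ in level but not in span. CYP1A1 runs from 10.87 in untreated parental cells to 12.58 with crizotinib, and CYP1A2, AHR and ARNT show no full order of the 3 conditions that LR2 and parental cells share.

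CYP1B1, a monooxygenase of extrahepatic tissues that also oxidises oestradiol, read 12.13 with crizotinib in LR2 cells and 12.40 in parental cells. With ceritinib it read 11.24 in LR3, 11.72 in LR2 and 12.09 in parental cells, and untreated cells read 11.08 in LR3, 11.54 in LR2 and 11.61 in parental cells. The agents kept their order inside each line, but the lines were offset, so that the LR3 ceritinib array lay below untreated cells of the other lines. Crizotinib exceeded ceritinib by 0.41 in LR2 and 0.31 in parental cells. All 5 CYP1B1 probe sets carry a suffix that marks probes shared with other transcripts, and all 5 had this order in both lines.

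TIPARP read 9.23 with crizotinib in LR2 cells and 9.36 in parental cells. With ceritinib it read 9.26 in LR3, 8.86 in LR2 and 8.83 in parental cells, against 8.71 in LR3, 8.52 in LR2 and 8.79 in parental cells left untreated. In parental cells the ceritinib array lay only 0.04 above the untreated one, while crizotinib lay 0.53 above ceritinib, rank 19 of 10527 genes. In LR2 cells crizotinib lay 0.37 above ceritinib. A dimmer probe set read 6.80 with crizotinib, 6.34 with ceritinib and 5.98 untreated in LR2 cells. In parental cells it read 6.70 with crizotinib, 6.37 with ceritinib and 6.60 untreated. On this set the parental ceritinib array thus lay 0.23 below the untreated one, and the crizotinib array 0.10 above it.

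AHRR, the repressor, read 9.84 with crizotinib in LR2 cells and 9.36 in parental cells. With ceritinib it read 9.55 in LR3, 9.28 in LR2 and 9.34 in parental cells, and untreated cells read 9.38 in LR3, 8.72 in LR2 and 8.40 in parental cells. The agents differed by 0.56 in LR2 cells and by 0.02 in parental cells, where both arrays stood close together. A dimmer AHRR probe set lay between 6.10 and 6.47 on all arrays and did not follow this order.

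In the additive limma model of line and agent, crizotinib minus ceritinib was 0.64 ± 0.16 (SE, 95% interval 0.27 to 1.01) for CYP1A1, with an adjusted p = 0.712. LR3 cells, which had no crizotinib array, entered this model through their ceritinib and untreated arrays. Its estimates are therefore not the mean of the LR2 and parental differences. CYP1B1 differed by 0.39 ± 0.10 (0.16 to 0.61, adjusted p = 0.712), TIPARP by 0.39 ± 0.11 (0.12 to 0.66, adjusted p = 0.771) and AHRR by 0.39 ± 0.17 (0.01 to 0.77, adjusted p = 0.791), all by limma. The intervals of CYP1A2 (-0.37 to 0.46), AHR (-0.31 to 0.27) and ARNT (-0.28 to 0.27) included 0. limma called 0 of 10527 genes (0%) between the agents at an adjusted p under 0.05, and 637 genes (6.05%) had an unadjusted p under 0.05. Without the parental ceritinib array the call changed: limma then called 401 genes, among them CYP1A1 (0.89, adjusted p = 0.0031), AHRR (0.64, adjusted p = 0.0273) and CYP1B1 (0.48, adjusted p = 0.0413), while TIPARP was 0.25 and not called. In that fit ceritinib was read in the resistant LR2 and LR3 cells alone, and only LR2 had both agents. It is therefore not the same comparison as crizotinib against ceritinib in both lines. The AHRR difference was 0.21 without the LR2 crizotinib array and 0.13 with the mean of its probe sets. All p-values measure only the spread of these arrays around the fitted line and agent effects, since nothing is known of separate cultures. With 1 array per condition, a real difference between lines in the response to an agent counts as spread in the additive model. It can therefore lower the number of genes called.

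**Figure D2:**
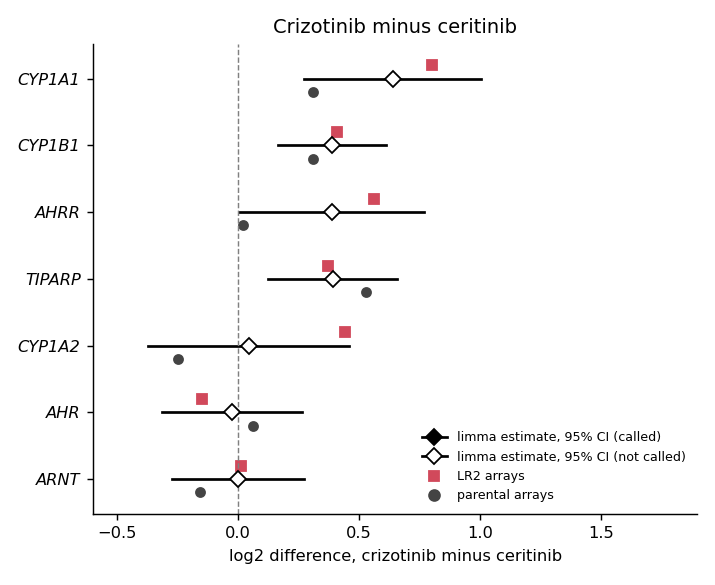
Crizotinib minus ceritinib in log2 signal for each of the 7 genes, with LR2 and parental single-array differences as points and the limma estimate with its 95% interval. Points of CYP1A1, CYP1B1, AHRR and TIPARP lie above 0 in both lines, from 0.02 for AHRR in parental cells to 0.80 for CYP1A1 in LR2 cells.

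On the brightest probe sets the order crizotinib over ceritinib over untreated held in both lines for 4 of the 7 genes, against 9.08% of all genes tested. A crizotinib signal at least 0.3 above ceritinib in both lines was found for 3 of the 7 (CYP1A1, CYP1B1 and TIPARP), against 0.209%, or 22 of 10527 genes. Both measures were chosen after the values were seen and carry no test. The cut of 0.3 lies just below the parental differences of CYP1A1 and CYP1B1, both 0.31. The members were also chosen with earlier results of these data known, so these shares cannot show that the members stand out. At the 2-fold level no member differed between the agents in either line, where 0.0665% of genes were higher with crizotinib in LR2 cells and 0% in parental cells.

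The output of the ERK pathway, which lies downstream of ALK, is given beside these values. DUSP6, an ERK phosphatase induced by ERK itself, read 7.26 with crizotinib, 11.51 with ceritinib and 11.79 untreated in LR2 cells. In parental cells it read 7.93 with crizotinib, 7.39 with ceritinib and 12.41 untreated, and in LR3 cells 12.04 with ceritinib and 12.17 untreated. In LR2 cells the widest gaps of the list between ceritinib and untreated were those of EGR1 and PHLDA1. EGR1, an immediate early gene, read 6.95 with ceritinib and 8.43 untreated, and PHLDA1 8.19 with ceritinib and 8.92 untreated. Most others lay closer, such as CCND1 (12.30 with ceritinib, 12.35 untreated) and DUSP4 (9.11 with ceritinib, 9.12 untreated). SPRY2 (9.42 with ceritinib, 9.26 untreated) and MYC (10.32 with ceritinib, 10.19 untreated) read higher with ceritinib. CYP1A1 was 0.86 above untreated with ceritinib in LR2 cells and 0.63 above in LR3 cells. In parental cells CYP1A1 read 0.31 higher with crizotinib than with ceritinib. All 13 ALK and ERK output genes read lower with crizotinib than untreated in LR2 and in parental cells, with a list median of -1.62 by limma. Of these 13, limma called 3 lower, SPRY4 (-3.25 ± 0.65, adjusted p = 0.0416), PHLDA1 and SPRED1, and did not call DUSP6. Over all genes 0.94% were called lower. The additive model counts the unlike ceritinib readings of parental and resistant cells as spread. SPRY4 and SPRED1 encode feedback inhibitors of the RAS and ERK cascade. Over the 13 genes the median of crizotinib minus ceritinib was -0.89, against -0.02 over all genes, and limma called 0 of them. This median pools lines that differed in direction. Every gene of the list read lower with crizotinib than with ceritinib in LR2 cells. The parental arrays mostly showed the reverse, from a wide gap for DUSP6 to a narrow one for ETV4 (7.58 with crizotinib, 7.56 with ceritinib). Only SPRY4 (3.81 with crizotinib, 4.08 with ceritinib) read lower with crizotinib in parental cells, and MYC read 9.28 with both agents. The part of ERK output in the differences of the AHR targets was not tested.

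Against untreated cells, 4 of the 7 genes were called higher with crizotinib by limma, and none lower, where 3.76% of all genes were called. CYP1A1 rose by 1.60 ± 0.16 (95% interval 1.23 to 1.97, adjusted p = 0.0222). No gene had a lower adjusted p, but other genes shared this value, so it does not rank CYP1A1 first. AHRR rose by 0.94 ± 0.17 (adjusted p = 0.0354), TIPARP by 0.70 ± 0.11 (adjusted p = 0.0313) and CYP1B1 by 0.66 ± 0.10 (adjusted p = 0.0281). Over all genes limma called 2.82% higher and 0.94% lower, that is, 297 and 99 genes, which became 164 and 94 after quantile normalization and 170 and 107 with arrays centred on their medians. All 4 member calls held under both, and the median was 0.66 over the 7 members and 0.02 over all genes. Each rise was seen in 2 of 2 lines: CYP1A1 was 1.66 above untreated in LR2 cells (3.16-fold) and 1.71 in parental cells (3.27-fold). AHRR was higher by 1.12 in LR2 and 0.96 in parental cells, CYP1B1 by 0.59 in LR2 and 0.79 in parental cells, and TIPARP by 0.71 in LR2 and 0.57 in parental cells.

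**Figure D3:**
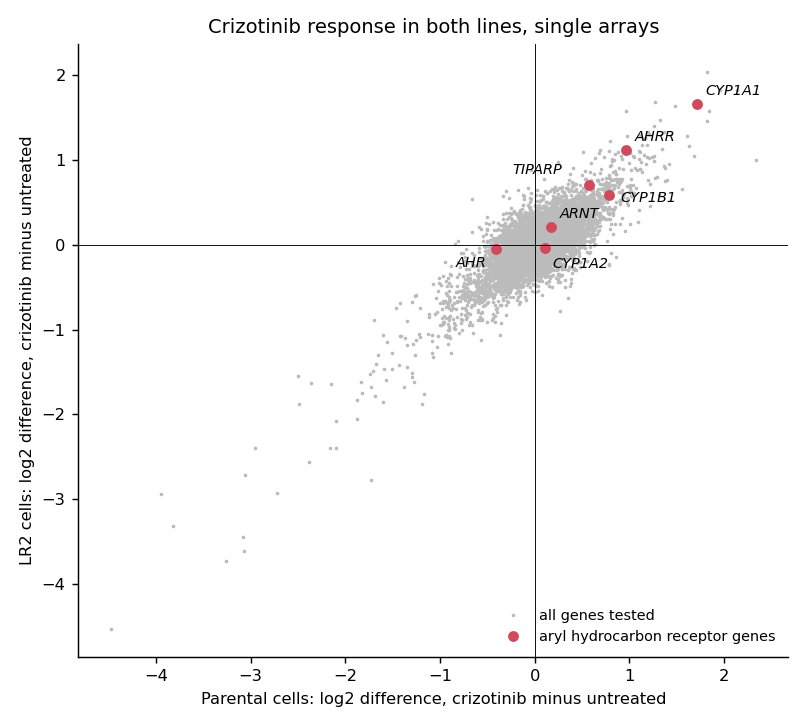
Crizotinib minus untreated in log2 units for all 10527 genes tested, 1 point per gene, with LR2 cells on the vertical axis, parental cells on the horizontal axis, 1 array per condition, and the 7 members marked by name. CYP1A1 lies at 1.66 in LR2 and 1.71 in parental cells, near the upper end of all genes, and CYP1A2, AHR and ARNT lie within the main cloud.

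At least 2-fold rises with crizotinib were those of CYP1A1 and AHRR in LR2 cells and of CYP1A1 in parental cells, where 0.475% of all genes in LR2 and 0.655% in parental cells rose as much. All 5 CYP1B1 probe sets and both CYP1A1 probe sets were called higher when each probe set was tested on its own. The dimmer TIPARP set (0.54, adjusted p = 0.1345) and the dimmer AHRR set (0.05) were not. limma called 0 genes when either crizotinib array, or the untreated array of LR2 or of parental cells, was left out, with 1244 to 1917 genes at an unadjusted p under 0.05. All 4 calls were then lost, and AHRR and TIPARP also lost theirs without the LR2 ceritinib array. Across all arrays left out in turn CYP1A1 kept a difference of 1.42 to 1.71, CYP1B1 of 0.55 to 0.72, AHRR of 0.77 to 1.12 and TIPARP of 0.64 to 0.83.

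**Figure D4:**
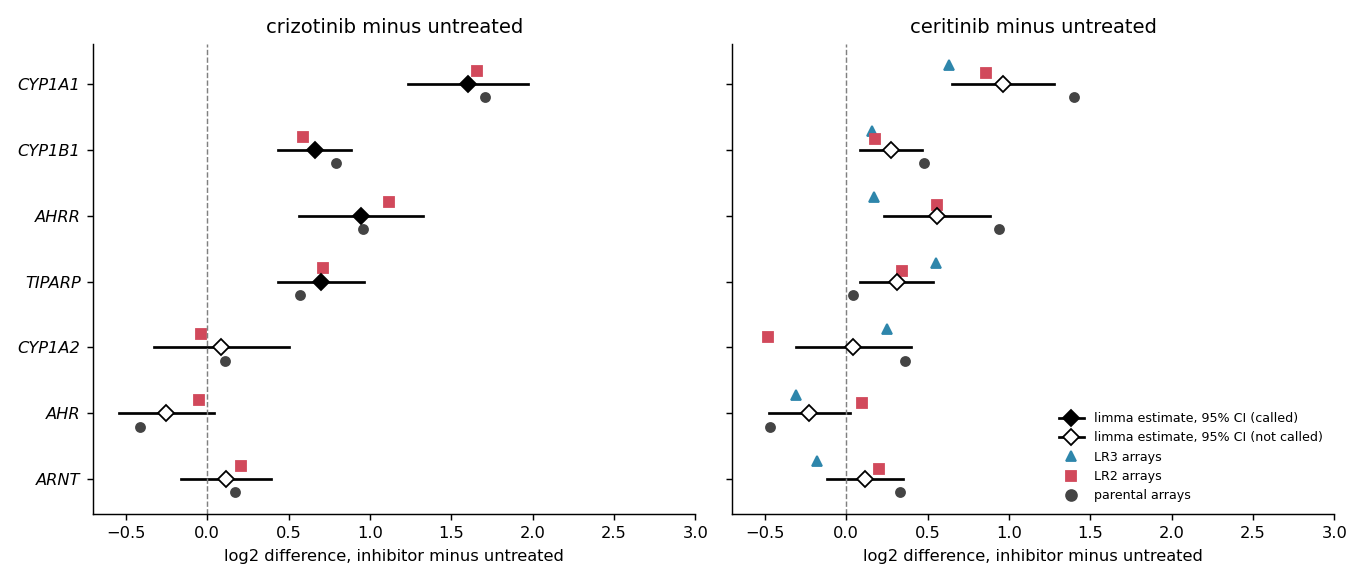
Difference from untreated cells in log2 signal for the 7 genes, with crizotinib and ceritinib shown apart, single-array differences per line as points and limma estimates with 95% intervals. CYP1A1 is highest with both agents, at 1.60 with crizotinib and 0.96 with ceritinib.

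With ceritinib limma called 0 of 10527 genes (0%) against untreated cells, with 2017 genes at an unadjusted p under 0.05. For CYP1A1 the limma difference was 0.96 ± 0.14 (95% interval 0.65 to 1.28, adjusted p = 0.0638). No gene had a lower adjusted p, but other genes shared this value, so it does not rank CYP1A1 first. It passed with an intensity trend in the variance prior (adjusted p = 0.0324) and with cross-hybridising probe sets left out (adjusted p = 0.0474). Its single-array differences were 0.63 in LR3, 0.86 in LR2 and 1.40 in parental cells, ranks 39 in LR3, 5 in LR2 and 16 in parental cells among 10527 genes. A 2-fold rise was reached in parental cells alone, where 0.608% of all genes reached it, against 0.038% in LR3 and 0.019% in LR2 cells. AHRR differed by 0.17 in LR3, 0.56 in LR2 and 0.94 in parental cells (limma 0.56 ± 0.14, adjusted p = 0.1105). CYP1B1 differed by 0.16 in LR3, 0.18 in LR2 and 0.48 in parental cells (adjusted p = 0.143). TIPARP differed by 0.55 in LR3, 0.34 in LR2 and 0.04 in parental cells (adjusted p = 0.154). CYP1A1, AHRR and CYP1B1 thus had their largest ceritinib difference in parental cells and TIPARP its smallest there, with 1 array each and no test of that difference. Both agents were compared with the same untreated arrays.

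Whether crizotinib stood apart differently in LR2 and parental cells was tested with a term for the LR2 crizotinib array. This term sets crizotinib against the mean of the ceritinib and untreated arrays of the same line. limma called 0 genes (0%), with 314 at an unadjusted p under 0.05. On that measure the CYP1A1 difference was 0.22 ± 0.31 larger in LR2 cells, with a 95% interval of -0.55 to 0.99 and an adjusted p = 0.950. Against untreated cells alone CYP1A1 differed by 1.66 in LR2 and 1.71 in parental cells, and against ceritinib alone by 0.80 in LR2 and 0.31 in parental cells. The intervals for CYP1B1 (-0.51 to 0.41) and TIPARP (-0.57 to 0.55) included 0 too, and AHRR differed by 0.35 ± 0.31 (adjusted p = 0.950).

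The remaining CYP1 gene, CYP1A2, the main constitutive CYP1 enzyme of liver, was read by a probe set that can cross-hybridise. It read 7.49 with crizotinib in LR2 cells and 7.65 in parental cells. With ceritinib it read 7.62 in LR3, 7.05 in LR2 and 7.90 in parental cells, and untreated cells read 7.37 in LR3, 7.53 in LR2 and 7.54 in parental cells. These values overlapped between agents. Its other probe set lay below the floor on all 8 arrays, at 4.40 to 4.90. Crizotinib minus untreated was 0.09 by limma (adjusted p = 0.817).

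AHR itself read 9.31 with crizotinib in LR2 cells and 9.59 in parental cells. With ceritinib it read 9.30 in LR3, 9.46 in LR2 and 9.53 in parental cells, and untreated cells read 9.61 in LR3, 9.36 in LR2 and 10.00 in parental cells. The untreated parental array was the highest of the 8 on all 3 AHR probe sets. Crizotinib minus untreated was -0.25 ± 0.13 (adjusted p = 0.277) and ceritinib minus untreated -0.23 (adjusted p = 0.293) by limma, neither called. ARNT lay between 8.47 and 8.93 on all arrays, and no agent or line comparison called it. Crizotinib minus untreated was 0.12 ± 0.12 for ARNT (limma, adjusted p = 0.610).

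Between the lines CYP1B1 and AHRR differed in opposite directions. In LR3 cells CYP1B1 fell by 0.70 ± 0.10 against parental cells (limma, SE, adjusted p = 0.00281), and the single arrays gave -0.85 with ceritinib and -0.53 untreated. AHRR rose by 0.65 ± 0.17 (limma, adjusted p = 0.0276), at 0.21 with ceritinib and 0.98 untreated. limma called 9.53% of all genes higher and 12.1% lower in LR3, so that 1 of 7 members in each direction is close to the share of all genes. The split was 1003 higher and 1271 lower, and 1501 and 1223 with arrays centred on their medians. The CYP1B1 call held in all 8 fits that each left out 1 array and on all 5 probe sets. The AHRR call did not hold with the mean of its probe sets (0.24, adjusted p = 0.137). It was also lost without the LR3 untreated array (0.36), the parental untreated array (0.52), the LR2 untreated array (0.64) or either crizotinib array (0.59).

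**Figure D5:**
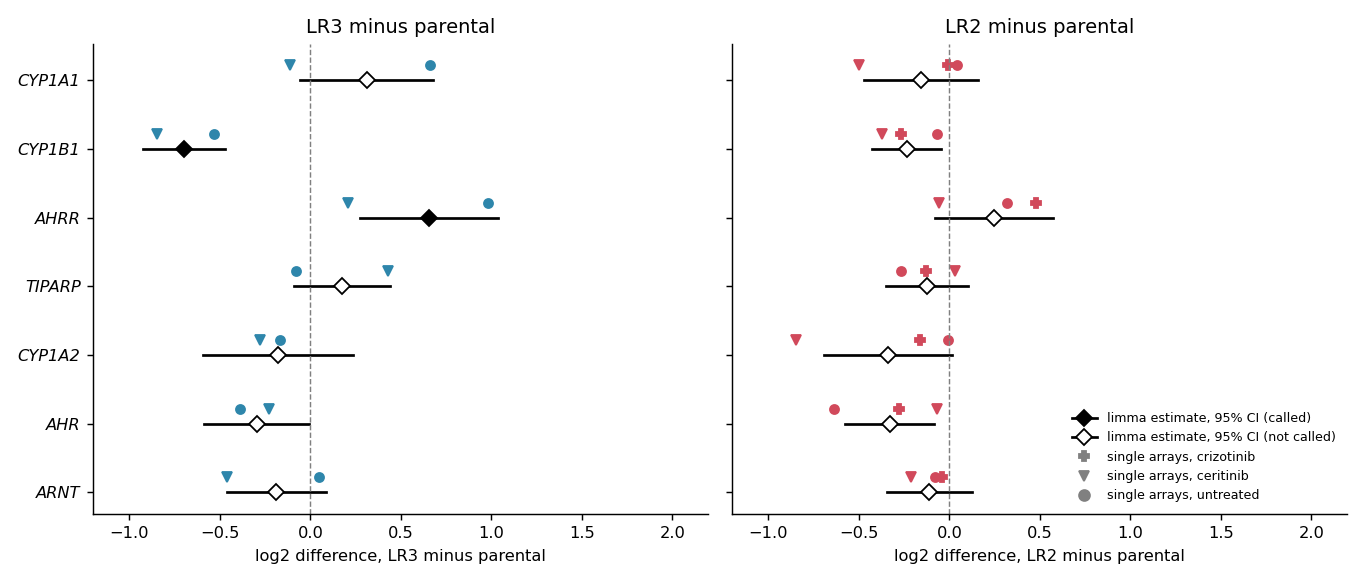
Line differences in log2 signal for the 7 genes, LR3 minus parental and LR2 minus parental, with single-array differences at the same agent as points and limma estimates with 95% intervals. CYP1B1 lies lowest in LR3, at -0.70, and AHRR highest, at 0.65.

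CYP1A1 differed by 0.31 ± 0.16 in LR3 against parental cells without a call (limma, adjusted p = 0.203), at -0.11 with ceritinib and 0.66 untreated. Without the parental ceritinib array it was 0.57 and called (limma, adjusted p = 0.00849). TIPARP differed by 0.17 (adjusted p = 0.321). LR3 fell below LR2 for CYP1B1, by 0.46 ± 0.10 (limma, adjusted p = 0.0138), where 12.3% of all genes were called lower. Here 767 genes were higher and 1297 lower, against 1100 and 1215 after quantile normalization and 1290 and 1103 with centring. The CYP1B1 call was lost without either LR3 array or the LR2 untreated array, at -0.55 to -0.38. CYP1A1 was 0.47 ± 0.16 above LR2 (limma, adjusted p = 0.0764). It was called with the mean of its probe sets (0.50, adjusted p = 0.0445), with the variance trend (adjusted p = 0.0381) and without the parental ceritinib array (0.52, adjusted p = 0.00347). It was 0.22 without the LR3 untreated array and 0.72 without the LR3 ceritinib array, called in neither, and its second probe set tested on its own was called (0.54, adjusted p = 0.0474). In LR2 against parental cells limma called none of the 7 members, where it called 22.5% of all genes, 12.8% higher and 9.68% lower. These were 1350 higher and 1019 lower genes, or 1175 and 1407 after quantile normalization. The nearest were AHR (-0.33 ± 0.11, adjusted p = 0.0610) and CYP1B1 (-0.24 ± 0.08, adjusted p = 0.0763). AHR was called lower by limma in 7 of 18 alternatives. It was called after quantile normalization (-0.37, adjusted p = 0.0258), with centring (-0.36, adjusted p = 0.0358) and without either the LR2 or the parental ceritinib array. The mean of probe sets, the variance trend and leaving out cross-hybridising sets called it too, and the trend also called CYP1B1 lower. In LR3 against parental cells AHR was called lower with the mean of probe sets and without cross-hybridising sets. AHRR was called higher in LR2 without the parental ceritinib array (0.45, adjusted p = 0.0165), and CYP1B1 lower without the parental untreated array (-0.33, adjusted p = 0.0497). When each probe set was tested on its own, the dimmest AHR set was called lower in LR2 (-0.46, adjusted p = 0.0195) and in LR3 (-0.62, adjusted p = 0.0130).

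Across the 8 arrays CYP1A1 varied with AHRR (Pearson r = 0.873), TIPARP (r = 0.827) and CYP1B1 (r = 0.588), and inversely with AHR (r = -0.465). These arrays share lines and agents, so the values are descriptions. Among 1022 genes whose signal spanned at least 1 log2 unit, those most like CYP1A1 were OTUD1 (r = 0.965), MB21D2 (0.956), EFNA1 (0.937), CXXC4 (0.931) and PCMTD1 (0.914). OTUD1 is a deubiquitinase and EFNA1 an ephrin ligand. EFNA1 read 9.47 with crizotinib, 8.63 with ceritinib and 8.37 untreated in LR2 cells, but 9.38 with crizotinib, 9.49 with ceritinib and 8.27 untreated in parental cells, so the agents were not in the CYP1A1 order there. The closest to TIPARP were YPEL5 (r = 0.833), CCNJL (0.806), OTUD1 (0.789), CXXC4 (0.779) and MB21D2 (0.771).

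Of 17 other AHR-responsive genes on the array, 10 were bright enough to test. With crizotinib against untreated cells limma called 2 higher and 1 lower, where 2.82% of all genes were higher and 0.94% lower. The list median was -0.08. ALDH3A1, an aldehyde dehydrogenase of the classic AHR battery, rose by 0.49 ± 0.08 (adjusted p = 0.0312). It read 9.75 with crizotinib, 9.55 with ceritinib and 9.24 untreated in LR2 cells. In parental cells ALDH3A1 read 10.23 with crizotinib, 10.11 with ceritinib and 9.71 untreated, and in LR3 cells 9.02 with ceritinib and 8.79 untreated. The order of agents was therefore that of CYP1A1 in every line. Other genes of the list went the other way without a call. PTGS2 read 4.88 with crizotinib and 6.29 untreated in LR2 cells, and 5.91 with crizotinib and 7.59 untreated in parental cells. SLC7A5 read 11.04 with crizotinib and 11.26 untreated in LR2 cells, and 11.02 with crizotinib and 11.42 untreated in parental cells. CDKN1B, the CDK inhibitor p27, rose by 0.75 ± 0.16 (limma, adjusted p = 0.0440), and STC2, a secreted glycoprotein, fell by 0.87 ± 0.17 (adjusted p = 0.0394). NQO1, a quinone reductase shared with the NRF2 pathway, spanned 12.41 to 12.78 and was not called with either agent. These calls rest on the same arrays as those of the members and were lost together with them.

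ALDH3A1 was lower in both resistant lines than in parental cells, at -0.999 in LR3 (limma, adjusted p = 0.000273) and -0.50 in LR2 (adjusted p = 0.00231). In LR3 4 of the 10 genes were called higher and 1 lower, where 9.53% of all genes were higher and 12.1% lower. ABCG2, a drug efflux pump, rose by 1.60, PTGS2, a cyclooxygenase, by 1.41, CYP2S1 by 0.35 and NQO1 by 0.27. In LR2 2 were higher (ABCG2 at 0.39 and CYP2S1 at 0.29) and 2 lower (ALDH3A1 and CDKN1B), where 12.8% of all genes were higher and 9.68% lower. The line counts of the lists below are read against the same shares.

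Among partners and other bHLH-PAS genes 9 of 13 were tested, and limma called none with either agent. BMAL1 (-0.31) and BMAL2 (-0.37), clock proteins of that family, were lower in LR3. Of 10 chaperone and coregulator genes 9 were tested and none was called with either agent. HSP90AB1, which encodes an HSP90 chaperone, rose by 0.50 in LR3 and 0.32 in LR2 against parental cells, the ubiquitin ligase scaffold CUL4B rose by 0.29 in LR3, and the coactivator NCOA1 by 0.50 in LR2. Of 12 hypoxia genes tested, which answer to ARNT paired with HIF proteins, 2 were higher with crizotinib against untreated cells (KDM3A by 0.61 and BNIP3 by 0.44). VEGFA fell by 1.06 ± 0.20 (limma, adjusted p = 0.0363). Over all genes 2.82% were called higher with crizotinib and 0.94% lower. The median of the hypoxia genes was -0.12. Between lines 2 of the 12 were higher and 1 lower in LR3, near the shares of all genes (9.53% and 12.1%). In LR2 5 of the 12 were lower, where 9.68% of all genes were, among them the collagen hydroxylase P4HA1 (-0.92) and the glucose transporter SLC2A1 (-0.65).

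Genes of other xenobiotic receptors were mostly too dim to test. Of 9 genes of the PXR and CAR pathway, which also govern drug metabolism, RXRA alone was tested, and it was not called with either agent (0.34 with crizotinib). CYP3A4 lay between 3.25 and 3.58 and CYP2B6 between 4.36 and 4.56, below the floor on every array. Of 16 genes, made up of further CYP genes, the reductase gene POR and CYB5A, 6 were tested and none was called with either agent. CYP2J2, an epoxygenase, rose by 0.56 in LR2, and CYP2R1, a vitamin D hydroxylase, fell by 0.63 in LR3. Of 10 tryptophan and kynurenine enzymes, some of which make AHR ligands, 3 were tested, and limma called none with either agent. KYAT3 was lower in LR3 (-0.31) and in LR2 (-0.36), and AFMID higher in LR3 (0.34). IDO1 (3.65 to 3.86) and TDO2 (3.35 to 3.70), the enzymes that open this pathway, lay below the floor on every array.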

How the data were processed

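RNA of 8 conditions was hybridised to 1 single-colour array each. Per the labels' protocols, RNA was isolated with an RNeasy kit and biotin-labelled with a 3' IVT kit. The authors deposited log2 signals per probe set, made with RMA, per the submitters' processing notes, and no count or depth applies. Not given in the sources used here are its software version and the arrays it took together. The probe table gave 1 symbol to 44988 probe sets, several to 1832 and none to 2473, and 102 were controls. No further normalization was applied. Line and agent were fitted together with limma 3.58.1 (R 4.3.3) over all 8 arrays, with 3 residual and 4.99 prior degrees of freedom. p-values were adjusted by Benjamini-Hochberg over 10527 genes. The number of arrays limits the precision. The fit was tested on simulated data. Alternatives varied the filter, normalization, probe set choice, variance trend, arrays and model terms. Named genes were the 7 members, up to 4 called genes of each of 8 lists in a comparison, and the 5 genes most like CYP1A1 and TIPARP; other genes were named after their values were seen. Members and lists were chosen with earlier results of these data known.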

Additional observations from a re-analysis of the deposited data

Results flagged for a closer look

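For CYP1A2, AHR and ARNT the single-array differences had opposite signs in different lines, and the difference between the lines was not tested. Crizotinib minus ceritinib was 0.44 in LR2 and -0.25 in parental cells for CYP1A2, -0.15 in LR2 and 0.06 in parental cells for AHR, and 0.01 in LR2 and -0.16 in parental cells for ARNT. Crizotinib minus untreated was -0.04 in LR2 and 0.11 in parental cells for CYP1A2. Ceritinib minus untreated was 0.25 in LR3, -0.48 in LR2 and 0.36 in parental cells for CYP1A2. For AHR it was -0.31 in LR3, 0.10 in LR2 and -0.47 in parental cells, and for ARNT -0.18 in LR3, 0.20 in LR2 and 0.33 in parental cells.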

How the results depend on the processing

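Of the single-gene values under alternatives, 628 kept direction and side of the threshold, 36 changed sign, 22 gained a call and 28 lost one, and the cause was not tested. Of the counts of called genes, 84 stayed within 1.5 times and 26 did not. Crizotinib against ceritinib gave 0 to 401 called genes with 1 array left out. Crizotinib against untreated gave 396, and 151 with no filter, 258 after quantile normalization, 797 with a variance trend and 0 to 1529 with 1 array left out, 143 without LR2 ceritinib and 1529 without parental ceritinib. Ceritinib against untreated gave 22 without cross-hybridising probe sets, 61 with a variance trend and 0 to 3 with 1 array left out. LR2 against parental gave 2369, and 1478 with no agent term and 1146 to 2116 with 1 array left out. LR3 against parental gave 632 to 2309, and LR3 against LR2 710 to 2630. The term for the LR2 crizotinib array gave 0 throughout. Signs changed for crizotinib minus ceritinib of AHR when centred (0.031) and of ARNT after quantile normalization (0.023), centring (0.054), the mean of probe sets (0.0535) or without cross-hybridising sets (0.076). Ceritinib minus untreated of CYP1A2 became -0.00375 after quantile normalization and -0.017 when centred. With no agent term LR3 minus parental became -0.062 for CYP1A1 and -0.00833 for TIPARP. The term for the LR2 crizotinib array became 0.02 for CYP1B1 when centred, and 0.0375 (quantile), 0.06 (centred) and 0.21 (mean of probe sets) for TIPARP. With 1 array left out, crizotinib minus ceritinib was -0.26 to 0.25 for CYP1A2, -0.13 to 0.13 for AHR and -0.075 to 0.12 for ARNT. CYP1A2 was -0.048 to 0.30 for crizotinib and -0.12 to 0.29 for ceritinib against untreated. LR2 minus parental was -0.30 to 0.047 for CYP1A1. LR3 minus parental was -0.33 to 0.023 for CYP1A2, -0.00667 to 0.35 for TIPARP and -0.41 to 0.035 for ARNT. The term for the LR2 crizotinib array was -0.11 to 0.55 for CYP1A1, -0.20 to 0.11 for CYP1B1 and -0.21 to 0.19 for TIPARP, and it could not be estimated without either crizotinib array. Without probe sets of cross-hybridising suffix CYP1B1 and CYP1A2 had no value. Every probe set tested on its own was an alternative chosen after seeing the data. No paired analysis was possible because each condition had 1 array and no replicate numbers, but the fit compares agents with line as a term. The second CYP1A2 set lay below the floor and the dimmer AHRR set within about 1 log2 unit of it, where differences may be compressed.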
